A study of Triticum aestivum with 96 samples.

Results

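The jacalin-like lectin was followed through the probe sets Ta.7388.2.S1_a_at and Ta.7388.1.S1_at, called the first and the second lectin probe set in what follows, which are 2 of the 61179 probe sets other than controls on the wheat array. They were chosen by name, with their levels over the cold treatment in view, namely the day of the lowest level, the return in the winter lines and the agreement of the 2 probe sets. These features are therefore described here without a test. An annotation table of the array assigns both to LOC606359, a protein-coding gene that RefSeq places on chromosome 2B of the Chinese Spring assembly IWGSC CS RefSeq v2.1. The lectin description is the study's own, given for the first probe set, and the tables used here hold no product name against which it could be checked.

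Jacalin-related lectins are plant proteins that bind sugars, many of them mannose or galactose. In grasses a group of them joins a lectin domain to a dirigent domain, and members of this group are known for induction by jasmonate, insect feeding or long cold. VER2 of wheat is one that was named for vernalization, the long cold that lets winter cereals flower. In maize a lectin of this chimeric kind binds a beta-glucosidase.

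Crowns, the plant base that holds the shoot apex, were taken from 4 near-isogenic lines of hexaploid wheat. The winter habit of winter Norstar rests on vrn-A1, the allele that leaves flowering dependent on cold, and winter Manitou carries that Norstar allele in the Manitou background. Spring Norstar carries Vrn-A1 of Manitou in the Norstar background, and spring Manitou carries its own Vrn-A1. All 4 lines carry vrn-B1 and vrn-D1, and the derived lines came from 10 backcrosses. Seedlings grew to the stage of 3 leaves and then went to 6 °C, where crowns were taken at the start, after 2 days and after 14, 21, 35 or 42 days, and last after 56 or 70 days. One label field lists 28 days where the duration field gives 21 days, and 21 days was used. Each line was sampled 3 times on each day, 25 crowns to a sample and 1 Affymetrix array to a sample, which gives 32 groups and 96 arrays, and the number of arrays limits the precision. The 3 samples of a group are stated to be biological replicates, and p-values measure the spread between them.

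The deposited values are log2 signals after RMA, a method that corrects background, sets the arrays to one distribution and merges the probes of a probe set. They ran from 1.92 to 14.73, and array medians lay between 5.66 and 5.78. The Vrn-A1 probe set, used to check the Vrn-A1 labels, averaged 5.42 ± 0.25 in winter Norstar and 9.49 ± 0.14 in spring Norstar at 0 days (SD, n = 3 each). At 0 days it averaged 5.22 ± 0.79 in winter Manitou and 9.66 ± 0.17 in spring Manitou (SD, n = 3 each), so the habits matched their labels, while the backgrounds were not checked this way. No marker list for the cell types of the crown was used. In this bulk tissue, fewer cells of a type and less RNA per cell cannot be told apart, nor can a lower level and sequence differences between cultivars under the probes.

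Before cold the lectin was bright in every line and brighter in both Manitou lines. The first lectin probe set averaged 8.05 ± 0.73 in winter Norstar and 10.54 ± 0.79 in winter Manitou, and 8.61 ± 0.71 in spring Norstar and 11.17 ± 0.27 in spring Manitou (log2 signal, SD, n = 3 each). In spring Manitou it stood above 96.6% of the probe sets on its arrays on average, and in winter Norstar above 76.7%. The second lectin probe set gave the same order at lower levels, with 7.03 ± 0.72, 9.60 ± 0.82, 7.56 ± 0.64 and 10.21 ± 0.28 in those lines (SD, n = 3 each).

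After 2 days of cold the lectin was lower in all 4 lines, and in no line did the arrays at 2 days overlap those at 0 days. In winter Norstar, the first lectin probe set read 5.65, 6.16 and 6.24 at 2 days, against 7.62, 7.63 and 8.89 at 0 days. In winter Manitou it read 9.25, 8.48 and 6.78 at 2 days, against 10.46, 9.80 and 11.37 at 0 days. The winter Manitou arrays were the most widely spread at 2 days, and their mean difference was -2.37 with all arrays and -1.26 without replicate 3. In spring Norstar it read 7.35, 6.80 and 6.40 at 2 days, against 9.43, 8.27 and 8.14 at 0 days. In spring Manitou it read 9.24, 8.18 and 8.03 at 2 days, against 11.28, 10.86 and 11.38 at 0 days. As ratios of means, the 0-day level was 4.08 times the 2-day level in winter Norstar, 5.18 times in winter Manitou, 3.40 times in spring Norstar and 6.44 times in spring Manitou.

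The second lectin probe set had the same 2-day pattern with smaller ratios, of 2.45 in winter Norstar, 4.39 in winter Manitou, 2.21 in spring Norstar and 5.68 in spring Manitou. Its winter Manitou difference was -2.13 with all arrays and -1.15 without replicate 3. A level at 2 days below every 0-day array was common on these arrays. It was found in 26.2% of the probe sets tested in winter Norstar, 23.2% in winter Manitou, 22.9% in spring Norstar and 22.7% in spring Manitou. Since the course over days chose the members, nothing is read from this comparison.

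**Figure D1:**
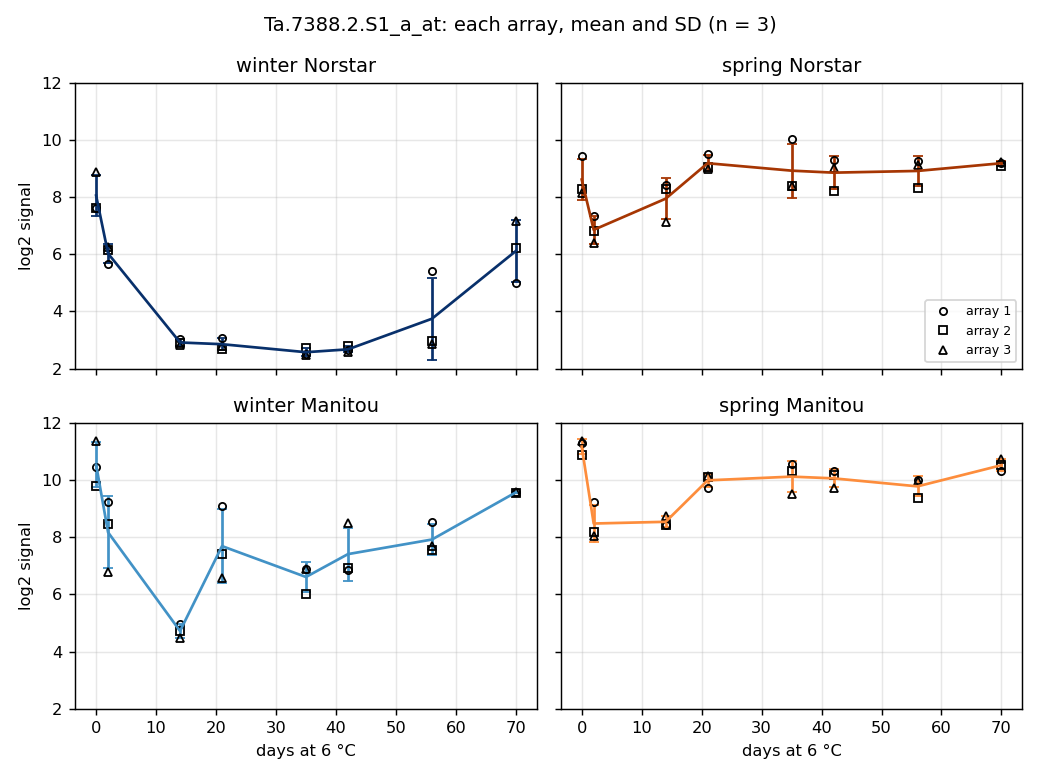
Log2 signal of Ta.7388.2.S1_a_at, the first lectin probe set (vertical axis), against days at 6 °C (horizontal axis) in the 4 lines. Symbols are single arrays, lines join the means and bars are the SD (n = 3). Winter Norstar lay below 3.1 on all arrays at 14 to 42 days, winter Manitou was lowest at 14 days, and both spring lines stayed above 6.

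After 2 days the winter and spring lines parted. In winter Norstar, the first lectin probe set averaged 2.91 ± 0.12 at 14 days, 2.85 ± 0.20 at 21 days, 2.57 ± 0.14 at 35 days and 2.67 ± 0.10 at 42 days (SD, n = 3 each). The 35-day arrays read 2.52, 2.73 and 2.46, above only 0.0834%, 1.14% and 0.0588% of the probe sets on them. These values lie at the bottom of the scale of the arrays, so the 44.4-fold range between the 0-day and the 35-day means is uncertain at its low end. The lowest day of winter Norstar could not be fixed either. The second lectin probe set averaged 2.99 ± 0.11 at 14 days and 2.97 ± 0.08 at 35 days (SD, n = 3 each).

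Winter Manitou was lowest at 14 days and at a higher level. The arrays of the first lectin probe set read 4.96, 4.72 and 4.48 at 14 days, and the 0-day mean was 56.7 times the 14-day mean. At 21 days the same probe set read 9.09, 7.41 and 6.56, so that all 3 arrays lay above every 14-day array. The means that followed were 6.61 ± 0.51 at 35 days, 7.41 ± 0.93 at 42 days, 7.92 ± 0.53 at 56 days and 9.57 ± 0.02 at 70 days (SD, n = 3 each). The 21-day mean of 7.69 ± 1.29 therefore stood above the 35-day mean by less than its own SD.

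In the spring lines the lowest means were higher than in the winter lines and lay at 2 or 14 days. Spring Norstar had its lowest mean at 2 days, 6.85 ± 0.48, and averaged 7.94 ± 0.71 at 14 days and 9.18 ± 0.28 at 21 days (SD, n = 3 each). From 21 to 70 days its means stayed between 8.85 and 9.18, above the 0-day mean of 8.61. Spring Manitou averaged 8.48 ± 0.66 at 2 days and 8.54 ± 0.19 at 14 days, and reached 9.99 ± 0.22 at 21 days (SD, n = 3 each). Its lowest day could not be fixed between 2 and 14 days, since the second lectin probe set was lowest at 14 days (7.50 ± 0.25) and the difference between those days was within the SD in both probe sets.

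**Figure D2:**
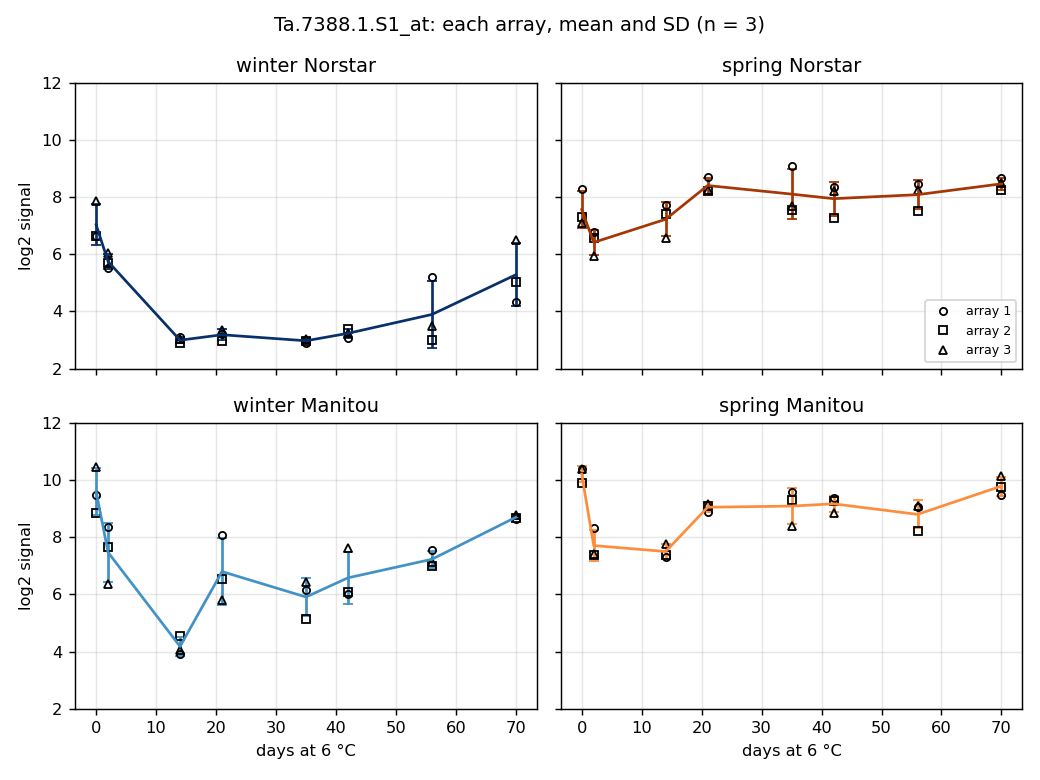
Log2 signal of Ta.7388.1.S1_at, the second lectin probe set (vertical axis), against days at 6 °C (horizontal axis) in the 4 lines. Symbols are single arrays, lines join the means and bars are the SD (n = 3). The course follows that of the other lectin probe set, with means of 2.97 to 3.23 in winter Norstar from 14 to 42 days and the lowest mean of winter Manitou at 14 days.

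Late in the cold the lectin was higher again in both winter lines. In winter Norstar, the first lectin probe set read 4.98, 6.20 and 7.17 at 70 days, against 2.52, 2.73 and 2.46 at 35 days, a ratio of means of 11.7. At 56 days only 1 array stood apart, with 5.40 beside 2.97 and 2.86. The second lectin probe set showed the same split at 56 days, with 5.21 on that array beside 2.98 and 3.48. At 70 days it read 4.31, 5.04 and 6.50. So both probe sets placed the same array high at 56 days, and the 3 arrays at 70 days in the same order.

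In winter Manitou the 70-day arrays were close together, at 9.59, 9.56 and 9.57 for the first lectin probe set. That mean was 29.0 times the 14-day mean for the first lectin probe set and 22.9 times for the second. The 70-day means of the first lectin probe set differed from the 0-day means by -1.93 in winter Norstar and -0.97 in winter Manitou, and by 0.56 in spring Norstar and -0.65 in spring Manitou. Separation of all 70-day arrays above those of the lowest day was found in 25.1% of the probe sets tested in winter Norstar (against 35 days) and 25.8% in winter Manitou (against 14 days). It was found in 32.6% in spring Norstar and 29.7% in spring Manitou (both against 2 days).

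The measured gap between winter and spring lines was wider in the Norstar background from 14 days on. At 2 days the gaps of the first lectin probe set differed by less than the SD of winter Manitou (1.26). For the first lectin probe set, winter minus spring Norstar was -0.57 at 0 days and -0.83 at 2 days, and then -5.03 at 14 days, -6.33 at 21 days, -6.35 at 35 days, -6.17 at 42 days, -5.17 at 56 days and -3.06 at 70 days. Winter minus spring Manitou was -0.63, -0.31, -3.82, -2.30, -3.51, -2.65, -1.86 and -0.95 on the same days. Over 14 to 42 days the winter line averaged 2.75 and the spring line 8.72 in the Norstar background, a 62.7-fold difference, and 6.61 and 9.68 in the Manitou background, an 8.40-fold difference. Winter Norstar was at the floor of the scale on these days, so its fold is that of the signals as given and not a measure of the RNA.

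The second lectin probe set gave 3.09 in winter and 7.91 in spring Norstar over those days (28.3-fold), and 5.87 in winter and 8.70 in spring Manitou (7.13-fold). All winter arrays lay below all spring arrays on 7 of 8 days in the Norstar background for the first lectin probe set and on 6 of 8 for the second, as many days or more in 0.488% and 1.61% of the probe sets tested. In the Manitou background this held on 6 of 8 days for both, from 14 to 70 days (0.688% of the probe sets tested). The habit of the lines entered the choice of the members, so these counts are descriptions.

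The lectin was lower in the Norstar background in both habits, and the gap was larger between the winter lines. The courses that chose the probe sets are made of the same values, above all in the winter lines, so every difference that includes winter lines in the cold is given with its SE or interval and without a p-value, and nothing is read from its calls. Tests are given for the spring pair and for 0 days. They came from a limma model with 32 group means, with p-values adjusted over 31543 probe sets by the Benjamini-Hochberg method and calls at an adjusted p under 0.01. The study had named the first lectin probe set partly because the lines differed on these same arrays, so for it these tests too are not independent evidence. The second lectin probe set reads the same gene on the same RNA and was chosen with the first, so its tests are not independent evidence either.

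Over 8 days and both habits, the first lectin probe set averaged 6.46 in the Norstar lines and 8.83 in the Manitou lines, a difference of -2.37 ± 0.13 (SE, 95% interval -2.62 to -2.12). The second lectin probe set averaged 6.03 in the Norstar lines and 7.98 in the Manitou lines, a difference of -1.95 ± 0.12 (SE, 95% interval -2.19 to -1.72). Differences between the backgrounds were frequent, since 48.1% of the probe sets tested passed the threshold, made up of 27.3% that were lower in Norstar and 20.8% that were higher.

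Between the winter lines, the first lectin probe set averaged 4.37 in winter Norstar and 7.83 in winter Manitou, a difference of -3.46 ± 0.18 (SE), and the second differed by -2.77 ± 0.17 (SE). Between the spring lines the difference was -1.28 ± 0.18 (SE, limma adjusted p = 7.88e-09) for the first lectin probe set and -1.14 ± 0.17 (SE, limma adjusted p = 2.55e-08) for the second. Lower calls in Norstar were made for 21.8% of the probe sets tested in the winter pair and 19.4% in the spring pair.

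The winter gap minus the spring gap was -2.19 ± 0.26 (SE, 95% interval -2.69 to -1.68) for the first lectin probe set and -1.63 ± 0.24 (SE, 95% interval -2.10 to -1.15) for the second. This is also the gap between the habits in Norstar minus that in Manitou, which entered the choice of the members, and it is a description. A difference of this kind was called in 3.04% of the probe sets tested in either direction and with a negative sign in 1.38%. On the arrays of 0, 2 and 70 days alone, days chosen after the values were seen, it was -0.86 for the first and -0.81 for the second.

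**Figure D3:**
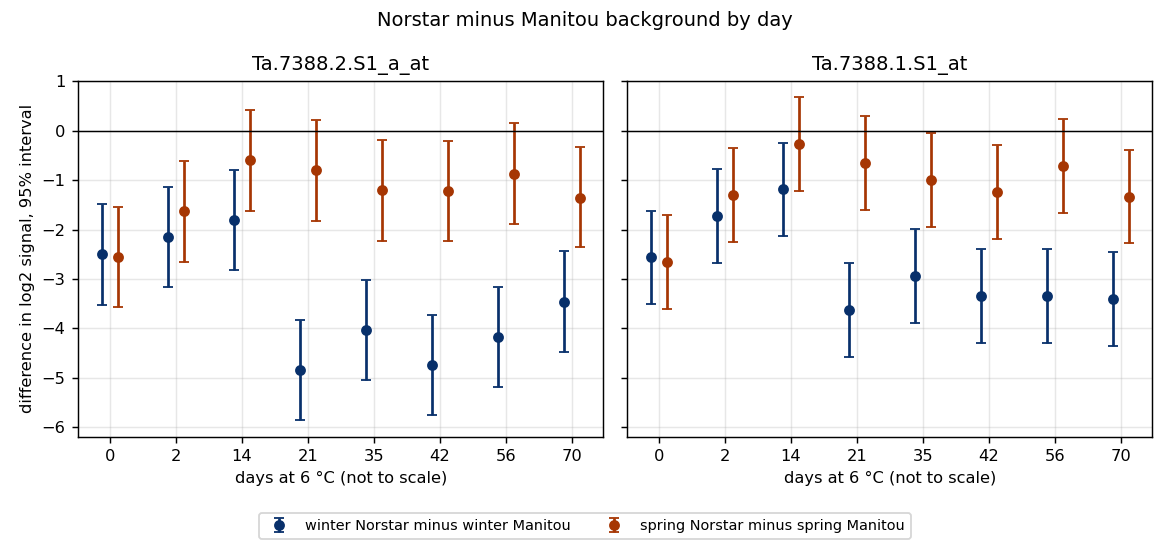
Difference in log2 signal between Norstar and Manitou lines (vertical axis) by days at 6 °C (horizontal axis, evenly spaced), for the winter pair and the spring pair. Points are limma estimates and bars 95% intervals (n = 3 arrays per line and day). Both pairs start near -2.5 at 0 days, and from 21 days the winter pair lies between -2.94 and -4.84 while the spring pair lies between -0.65 and -1.35.

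Day by day, the gaps of both pairs were close at 0 days and far apart from 21 days. At 0 days the first lectin probe set differed by -2.50 ± 0.51 in the winter pair (SE, limma adjusted p = 0.00011) and by -2.56 ± 0.51 in the spring pair (SE, limma adjusted p = 7.27e-05). At 14 days winter Manitou was at its lowest and winter Norstar at the floor of the scale. The measured winter gap, of uncertain size there, was narrowest, with -1.80 ± 0.51 (SE). At 21 days it was widest, with means of 2.85 in winter Norstar and 7.69 in winter Manitou, a 28.6-fold difference (-4.84 ± 0.51, SE) whose low end is at the floor of the scale.

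The winter difference passed the threshold on 8 of 8 days for the first lectin probe set. For the second lectin probe set it passed on 7 of 8 days, all but 14. In the cold these calls are made of the winter courses that chose the probe sets. Nothing is therefore read from their number, nor from its comparison with the shares that follow. On the 8 days in order lower calls took 4.69%, 4.96%, 7.85%, 5.31%, 6.11%, 5.93%, 8.88% and 8.32% of the probe sets tested. The arrays of the winter pair did not overlap on any of the 8 days in either probe set, as in 3.32% of the probe sets tested. That too is a description of the winter courses. In the spring pair only 0 days was called in both probe sets, beside 5.81% of the probe sets tested. There the arrays of the first lectin probe set lay apart on 6 of 8 days and those of the second lectin probe set on 5, as many days or more in 6.13% and 8.38% of the probe sets tested. A gap in the spring pair after 0 days was not shown to be absent, since the 95% interval at 70 days ran from -2.36 to -0.33 for the first lectin probe set.

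The 2 probe sets of LOC606359 followed each other closely. Over the 32 group means the correlation was 0.995, and within the lines, over 8 daily means, it ran between 0.982 in spring Norstar and 0.999 in winter Manitou. After each group mean was subtracted, the deviations of the 96 arrays still correlated at 0.963, and 87 of the 96 arrays deviated the same way in both. These are descriptions, since the arrays share the same RNA and the probe sets the same gene, and since agreement was a reason for the choice.

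The first lectin probe set read higher in 27 of 32 groups, by 0.27 to 1.06. In the other 5 groups, winter Norstar from 14 to 56 days, its mean was below 4 and it read lower than the second lectin probe set, by 0.08 to 0.56. The ratio between the days was smaller in the second lectin probe set, with 16.8-fold between its highest and lowest mean in winter Norstar, beside 44.4-fold. The mean of the second lectin probe set did not go under 2.97.

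**Figure D4:**
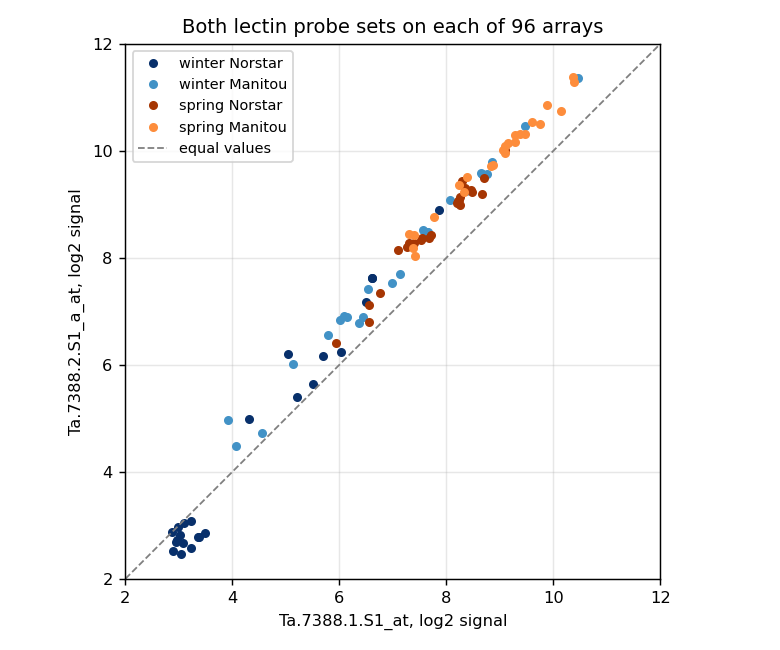
Log2 signal of the first lectin probe set (vertical axis) against the second lectin probe set (horizontal axis) on each of 96 arrays, coloured by line, with the line of equal values. The points run along 1 band above that line, except for winter Norstar arrays near the bottom of the scale, which lie on it or below it.

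Another 2 probe sets carry the number of the cluster. One, whose suffix _x_at marks probes that may bind other transcripts and which was therefore not tested, is also assigned to LOC606359. It had a correlation of 0.999 with the first lectin probe set over the 32 group means, and its lowest means were 2.97 in winter Norstar at 35 days and 5.01 in winter Manitou at 14 days. The other stayed between 3.07 and 3.43 in all 32 groups. Its name has another prefix and the tables used here give it no gene, so only the number links it to the lectin. Homoeologous copies of the gene in hexaploid wheat can share probes, and their parts in the signal cannot be told apart.

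The arrays of a group varied more in the lectin than in nearly all other probe sets. The pooled SD within groups was 0.64 for the first lectin probe set and 0.60 for the second, larger than in 99.6% and 99.4% of the probe sets tested, whose median was 0.149. The SD of a group was highest in winter Norstar at 56 days (1.44 and 1.17) and lowest in winter Manitou at 70 days (0.02 and 0.07).

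Arrays with the same day and replicate number deviated the same way in 4 of 4 lines in 3 of 24 sets for the first lectin probe set and in 5 of 24 for the second. The share over all probe sets was not computed, so nothing is read from these counts. At 56 days replicate 1 was above the group mean in 4 of 4 lines in both probe sets, by 0.71 on average for the first lectin probe set, and replicate 2 was below in 4 of 4, by 0.54. The winter Norstar array that stood high at 56 days is this replicate 1. With 5.40 beside its group mean of 3.74, it is itself part of the average of 0.71. At 0 days replicate 2 was below in 4 of 4 lines, by 0.45. On the same 3 winter Norstar arrays at 56 days, Vrn-A1 read 10.89, 11.02 and 11.07, a range of less than 0.2. The vernalization gene Vrt1 read 8.03, 8.28 and 8.11 on them. The array with the high lectin level was the lowest in both, and a relation to the lectin was not tested.

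The other jacalin-related probe sets that the study describes did not share 1 course. This list, like those below, comes from the study's own selection on these arrays, which is not independent evidence of change. It has 4 members in the part of the study's tables held here. VER2 is read by 2 probe sets. The other 2 are described as Hessian fly response gene 1, in wheat a lectin gene induced by larvae of that insect, and as Crs-1, a jasmonate-induced protein.

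Between the backgrounds, 1 of the 4 was higher and 3 were lower in the Norstar lines, beside 20.8% higher and 27.3% lower of the probe sets tested. Their median difference was -0.65, beside -0.01 over all probe sets tested. The higher one was a VER2 probe set, which averaged 8.47 in the Norstar lines and 6.96 in the Manitou lines (1.5 ± 0.10, SE, limma adjusted p = 4.55e-22). The other VER2 probe set averaged 11.50 in the Norstar lines and 12.47 in the Manitou lines (-0.98 ± 0.07, SE, limma adjusted p = 5.15e-20). The VER2 probe sets thus had opposite signs.

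In the mean of 14 to 42 days, 2 of the 4 were lower in winter than in spring Norstar and 1 was lower in winter than in spring Manitou. Lower calls took 8.9% and 4.05% of the probe sets tested. Hessian fly response gene 1 was lower in both, with 5.05 in winter and 7.10 in spring Norstar (-2.05 ± 0.18, SE, limma adjusted p = 7.78e-15) and 6.37 in winter and 7.30 in spring Manitou (-0.93 ± 0.18, SE, limma adjusted p = 0.000105). Neither VER2 probe set passed in either background. Leaving out replicate 1 or 2 lowered the Norstar count to 1, and leaving out replicate 3 lowered the Manitou count to 0.

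At 2 days against 0 days, none of the 4 was lower in either Norstar line, where 14.8% (winter) and 12.4% (spring) of the probe sets tested were. In each Manitou line Hessian fly response gene 1 and Crs-1 were lower, beside 14.2% (winter) and 14.4% (spring) of the probe sets tested. Late in the cold the VER2 probe set that was higher in the Norstar lines differed from the lectin. At 70 days it averaged 9.26 ± 0.41 in winter Norstar and 5.93 ± 0.96 in spring Norstar (SD, n = 3 each), where the lectin was lower in winter Norstar. Its correlation with the first lectin probe set over the 32 group means was -0.573, and those of the other VER2 probe set, Hessian fly response gene 1 and Crs-1 were 0.268, 0.594 and 0.745.

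**Figure D5:**
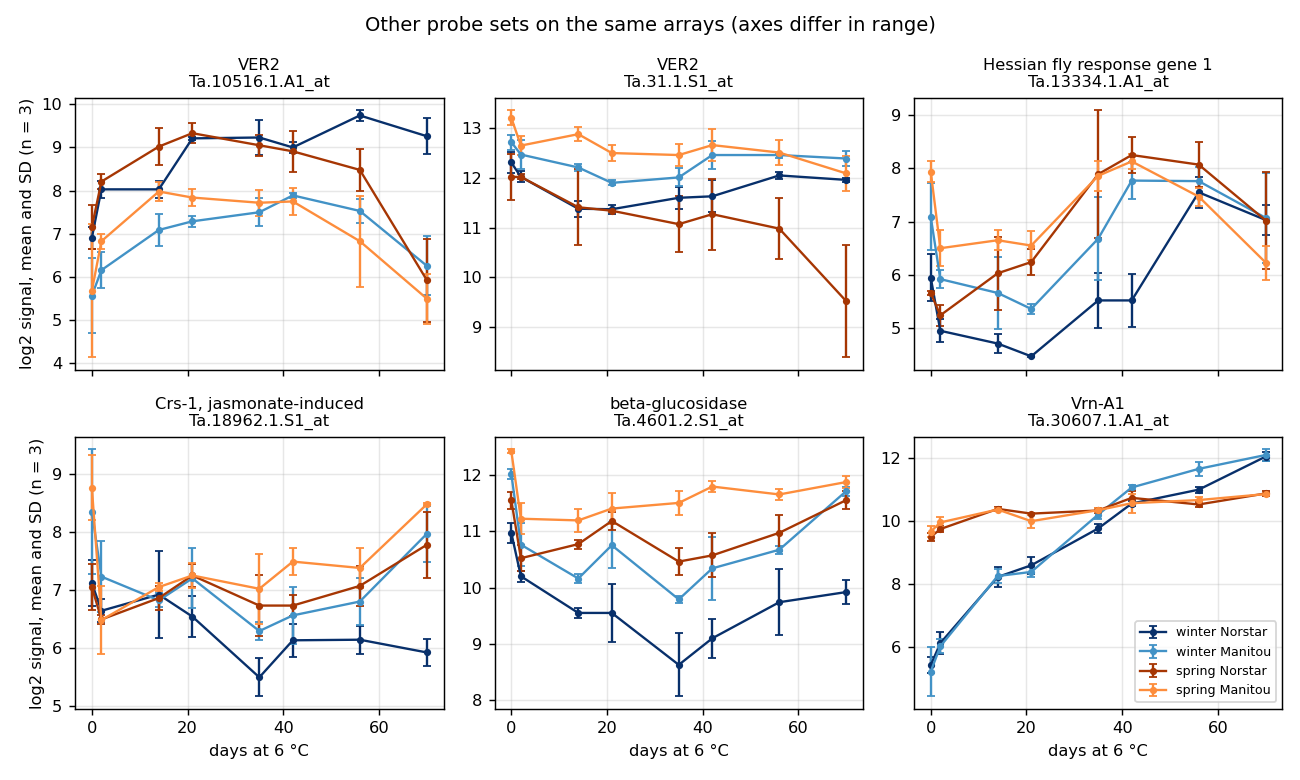
Log2 signal (vertical axes, different ranges) against days at 6 °C (horizontal axes) for 4 other jacalin-related probe sets, a beta-glucosidase probe set and Vrn-A1. Points are means and bars the SD (n = 3). The VER2 probe set in the first panel averages 9.26 in winter and 5.93 in spring Norstar at 70 days, and Vrn-A1 averages 12.04 in winter Norstar and 12.09 in winter Manitou.

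The dirigent probe sets, for proteins that carry the domain to which grass lectins are often joined, numbered 6 in the part of the study's tables held here. All 6 were lower in the winter line over 14 to 42 days in both backgrounds, beside 8.9% (Norstar) and 4.05% (Manitou) of the probe sets tested, with medians of -0.71 in Norstar and -0.44 in Manitou, beside 0.00 over all probe sets tested in each. The study had selected these probe sets on line and duration in the same arrays, so the shares over all probe sets tested are not a like comparison. The share among the genes it selected was not computed. The largest difference in each background was that of the same dirigent probe set, with 8.11 in winter and 9.77 in spring Norstar (-1.66 ± 0.10, SE, limma adjusted p = 1.82e-22) and 9.38 in winter and 10.23 in spring Manitou (-0.85 ± 0.10, SE, limma adjusted p = 7.30e-10). Between backgrounds 5 of the 6 were lower in Norstar and 1 was higher (3 lower without replicate 2, and none higher without replicate 1 or 2), beside 27.3% lower and 20.8% higher of the probe sets tested. At 2 days against 0 days 2 of the 6 were lower in winter Norstar, winter Manitou and spring Norstar and 1 in spring Manitou, beside 14.8%, 14.2%, 12.4% and 14.4% of the probe sets tested.

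The vernalization genes had courses of their own. Vrn-A1, a MADS-box gene of floral transition, averaged 5.42, 6.12, 8.22, 8.59, 9.76, 10.55, 10.99 and 12.04 on the 8 days in winter Norstar, so its means went up with the days both while the lectin was low and while it was higher again. Its correlation with the first lectin probe set over the 32 group means was 0.093, that of Vrt1, another MADS-box gene, was 0.252, and that of the flowering promoting factor-like probe set was -0.101. Over 14 to 42 days Vrn-A1 was lower in winter than in spring Norstar, with 9.28 and 10.42 (-1.14 ± 0.09, SE, limma adjusted p = 2.39e-17), and Vrt1 with 6.23 and 8.67 (-2.44 ± 0.11, SE, limma adjusted p = 3.89e-30). The lines were bred to differ at Vrn-A1, so the test of Vrn-A1 is no independent evidence. Later the order of Vrn-A1 was reversed, with 10.99 in winter and 10.52 in spring Norstar at 56 days, and 12.04 and 10.87 at 70 days. In the Manitou background the winter line was higher already at 42 days, with 11.06 beside 10.56. Vrn-A1 did not pass between the backgrounds (-0.08, 95% interval -0.17 to 0.01, limma adjusted p = 0.13), while Vrt1 was lower in Norstar (-0.25 ± 0.05, SE, limma adjusted p = 4.2e-05) and the flowering promoting factor-like probe set was higher (0.18 ± 0.05, SE, limma adjusted p = 0.00232). Between the spring lines alone none of the 3 passed, beside 34.3% of the probe sets tested. Vrt1 differed most between the winter lines at 42 and 56 days (-0.78 and -0.99). The flowering promoting factor-like probe set differed most at 0 days, with 8.48 ± 0.33 in winter Norstar and 6.82 ± 0.90 in winter Manitou (SD, n = 3 each). In these 3 probe sets the habit calls were 2 lower and 1 higher in each background, beside higher calls in 10.2% (Norstar) and 4.55% (Manitou) of the probe sets tested.

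The probe sets most like the lectin were ranked by Pearson correlation over the 32 group means, which share lines, days and arrays. For both lectin probe sets the other one came first (0.995) and the same probe set outside the cluster was next (0.934 and 0.936). It is described as a beta-glucosidase, an enzyme that splits sugars from glucosides, and is assigned to LOC780595. It averaged 8.63 ± 0.56 in winter Norstar at 35 days, its lowest group, and 12.42 ± 0.03 in spring Manitou at 0 days, its highest (SD, n = 3 each).

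The other 8 of the first 10 were the same for both lectin probe sets, whose own courses were nearly identical. Those with a description were an amylase inhibitor-like or defensin-like protein (0.904 with the first lectin probe set), an indole synthase (0.899), a nucleotide pyrophosphatase (0.899) and a plastocyanin-like protein (0.893). Indole synthase makes free indole from indole-3-glycerol phosphate, the entry to the benzoxazinoid defence compounds of grasses. The other 4, with correlations of 0.891 to 0.911, have no description in the tables used here. With each line centred on its own mean, most of the first 10 were replaced. The ranking thus depends on level differences between the lines as well as on the course over days.

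Within groups this likeness was uneven. The deviations from the group mean over 96 arrays correlated with those of the first lectin probe set at 0.731 for the indole synthase and 0.558 for the beta-glucosidase, but at 0.193 for the amylase inhibitor-like or defensin-like protein. In winter Manitou at 21 days, where the lectin read 9.09, 7.41 and 6.56, the indole synthase read 8.32, 7.52 and 7.27 on the same arrays. In winter Norstar at 56 days it read 7.31, 6.23 and 6.30, again highest on the array with the high lectin level. In winter Manitou at 56 days the order differed, with 7.43, 7.30 and 8.22 for the indole synthase where the lectin read 8.53, 7.54 and 7.69.

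The courses most opposite to that of the first lectin probe set were those of a probe set without a description (-0.928) and of one (-0.902) described as CBFIVb, of the CBF family of cold-induced transcription factors. CBFIVb averaged 7.10 ± 0.70 in winter Norstar and 5.05 ± 0.17 in spring Norstar at 35 days, and 4.89 ± 0.06 and 4.62 ± 0.24 in those lines at 70 days (SD, n = 3 each).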

How the data were processed

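The deposited log2 values were made by the authors from the probe signals of Affymetrix wheat arrays by RMA, with background correction, quantile normalization and summarization, and were used as given. Detection calls were not used here. Of 61290 probe sets, 111 controls were left out. Probe sets were kept where the highest group mean reached 5.15, a limit that keeps as many as the study called present, and 7745 whose suffix was _x_at or _s_at were removed, leaving 31543 (51.6%), both lectin probe sets among them. The fit was a linear model in limma 3.58.1 (R 4.3.3) with a mean for each of 32 groups and no covariate, and contrasts were adjusted by the Benjamini-Hochberg method. The fit was tested on simulated arrays. Python 3.11.15 (matplotlib 3.10.9, numpy 2.4.6, pandas 2.3.3) gave levels, correlations and figures. The members, lists and tests were chosen with earlier results of these data known. The genes named are the members, all probe sets with the number of the cluster, the listed lectin, dirigent and vernalization probe sets, and for each member the 10 most and 5 least alike probe sets. Descriptions come from the study's tables, of which the first part was held here, and from the annotation of the platform, in which 1273 probe sets have a gene symbol. Alternatives varied the brightness limit, name filter, scaling, variance moderation, array weights, blocks, replicates and days.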

Additional observations from a re-analysis of the deposited data

Results flagged for a closer look

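The gap between the Norstar and the Manitou background was larger in the winter pair than in the spring pair in both lectin probe sets, a difference picked out by its limma contrast. The winter gap minus the spring gap was -2.19 on the log2 scale for the first lectin probe set and -1.63 for the second lectin probe set. The contrast is made of the winter and spring courses that chose the probe sets, so it is no independent evidence. The winter Norstar means lay at the bottom of the scale from 14 to 42 days, and the part of that floor in the size of the difference was not tested. Groups of 3 arrays were too small for a test of single outlying arrays.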

How the results depend on the processing

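Each of the 8 background differences of the lectin probe sets was recomputed under 14 alternatives, and 110 of 112 values kept their direction and their call. The other 2 were the differences between habits on 0, 2 and 70 days alone, which lost their call. They were -0.86 and -0.81, beside -2.19 and -1.63 on all days. Fewer arrays were used there, and 21 days, where the winter gap was widest, was among the days left out. The cause was not tested. With 1 replicate number left out, the difference between habits ran from -1.82 to -2.39 for the first lectin probe set and from -1.32 to -1.85 for the second lectin probe set. Deviations of same-numbered Norstar and Manitou arrays correlated above 0.1 in 33 of 48 pairs (range -0.121 to 0.703, median 0.207), with 0.321 to 0.703 in the 6 pairs at 0 days. Since not every pair did, the numbers were not taken as a pairing, although the deviations at 0 days were shared. The tests at 0 days were not recomputed with a pairing. A block for the replicate number left the lectin differences at -2.37 and -1.95 and called 15395 probe sets, beside 15176. It changed none of the 8 calls of the lectin. Calls that include winter lines in the cold rest on the courses that chose the probe sets, so nothing is read from their stability.

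Counts of all probe sets called moved more. With the 20000 brightest probe sets they were 8736 for the background over 4 lines (15176 as reported), 7474 in the winter pair (12428) and 6418 in the spring pair (10834). On 0, 2 and 70 days alone they were 9234, 6379 and 5761, and 38 for the difference between habits (960 as reported). That last count was 2182 with array weights, 1558 with arrays of 1 day and number as a random block, and 299 to 640 with a replicate number left out. The cause was not tested.

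Without replicate 3 the difference between 2 and 0 days in winter Manitou was -1.26 and -1.15, and the range over the 3 omissions was -2.96 to -1.26 for the first lectin probe set and -2.64 to -1.15 for the second lectin probe set. The lowest day of spring Manitou moved between 2 and 14 days, to 14 for the first lectin probe set with means of linear signals or without replicate 2 or 3, and to 2 for the second lectin probe set without replicate 1. That of winter Norstar moved from 35 to 14 days for the second lectin probe set without replicate 1. With each line centred on its own mean, 3 of the 10 most alike probe sets were shared with those reported, the beta-glucosidase in place 2 among them. Among the other lists, array weights gave 1 lower jacalin-related probe set in Norstar and 3 in Manitou by habit, and the random block gave 2 in Manitou. Signals near the floor limit what can be said of winter Norstar from 14 to 42 days.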
